A study of Homo sapiens with 124 samples.

Results

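The long arm of human chromosome 13 was followed through maps of nuclear lamina contact made one cell at a time. Its members are the 960 bins of 100 kb on chromosome 13 for which every cell has a number and not all cells are at 0, of 26426 such bins over the genome, or 3.63%. The table listed 1152 bins for this chromosome, of which 190 held no number and 2 were at 0 in every cell. The usable bins ran from 19000001 to 115200000 on build hg19 and added up to 96 Mb. Chromosome 13 is acrocentric, so that its short arm is a small block of repeats, and all usable bins belong to the long arm.

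The nuclear lamina is a protein mesh under the inner nuclear membrane, and large gene-poor domains of the genome, called lamina-associated domains, lie against it. Such domains are mostly late replicating and weakly transcribed. In DamID, the bacterial methyltransferase Dam is fused to a lamina protein, here LaminB1, and marks GATC motifs that come close to the lamina while the cell is alive. Reads over a bin therefore record contact accumulated during the induction, and not a snapshot. The middle of the long arm is known for a wide gene desert whose few genes include protocadherins, which are cell adhesion proteins, and SLITRK genes, which code for neuronal membrane proteins.

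Each sample is 1 cell of the human line KBM7, which was derived from a chronic myeloid leukaemia and is nearly haploid, and all cells came from the single clone 14. All carried Dam-LaminB1 and were labelled haploid. Dam was induced with 0.5 nM Shield1, a small molecule that stabilises proteins bearing a destabilising domain, for 15 h, the sort took the smallest 2% of cells positive for both Fucci cell cycle markers, and amplification used 21 extension steps. Of 124 cells, 118 had a column and 6 were not analysed here, and no profile of unfused Dam was used. No cultures or treatment groups are named, so the cells form 1 group, the SDs give the spread between cells, and no p-value is given.

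A deposited value is a ratio of observed to expected reads, and a ratio of 1 or more was taken as contact. Contact share stands for the percentage of a cell's bins that were in contact, and contact frequency for the percentage of cells that had a given bin in contact. Whole reads could be recovered from the ratios. Over all usable bins they numbered 28372 to 385661 per cell. On chromosome 13 the median cell had 5964.5 reads, and the highest count was 14772, in cell 101. A ratio of 1 in the median chromosome 13 bin stood for 1.17 reads in the shallowest cell, 5.61 in the median cell and 15.8 in the deepest, so single reads decide contacts in the shallowest cells. Cells numbered 96 to 124 (n = 28) had deeper libraries than cells numbered 1 to 94 (n = 90), with a mean of 170307 against 127703 reads. They also had fewer chromosome 13 bins without any read, 22.8% against 43.6%. Results are given for both sets of numbers, since the labels say nothing of why they differ.

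Cell 77 stood apart before any contact was called. It had 148729 reads in all but 10 on chromosome 13, spread over 10 bins, and its highest ratio on the chromosome was 0.176. This is 1.04 reads per 100 bins, whereas the other 117 cells had 83.5 to 1538.75, with a median of 622.9. Its chromosome 14, another acrocentric chromosome, had 663.5 reads per 100 bins and its chromosome 18 had 706.1. In bins that no other cell had in contact, cell 77 had 0 reads over 144 bins of chromosome 13. Over the 5429 such bins of sequences on which cell 77 had any contact, it had 94.9 reads per 100 bins. In the median of the other cells these values were 10.4 and 9.76 reads per 100 bins. Cell 77 thus had more reads in such bins of those sequences than the median cell, and none in those of chromosome 13. The sequence 9:22, which stands in place of chromosome 9, was also nearly empty in cell 77, with 11 reads over 1324 bins. It had no contact there and was not part of that comparison. The cause was not tested. Results are given with cell 77 and, where it moves them, without it.

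Chromosome 13 touched the lamina over more of its length than the rest of the genome in most cells. Its contact share was 38.9% ± 9.51 (SD, n = 118), from 0 in cell 77 through a median of 40.1% to 60.4% in cell 119. The share of the other sequences in the same cells was 32.8% ± 5.53. The difference within cells was 6.11 ± 9.00 percentage points, and 6.52 ± 7.87 without cell 77. Chromosome 13 was higher in 94 of 118 cells, for which the exact 95% Clopper-Pearson interval is 71.3 to 86.5%. This interval, like the others given here, covers the counting of cells only. In cells 96 to 124 the difference was 5.38 points, with chromosome 13 higher in 22 of 28 cells, and in cells 1 to 94 it was 6.33 points, with chromosome 13 higher in 72 of 90.

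**Figure D1:**
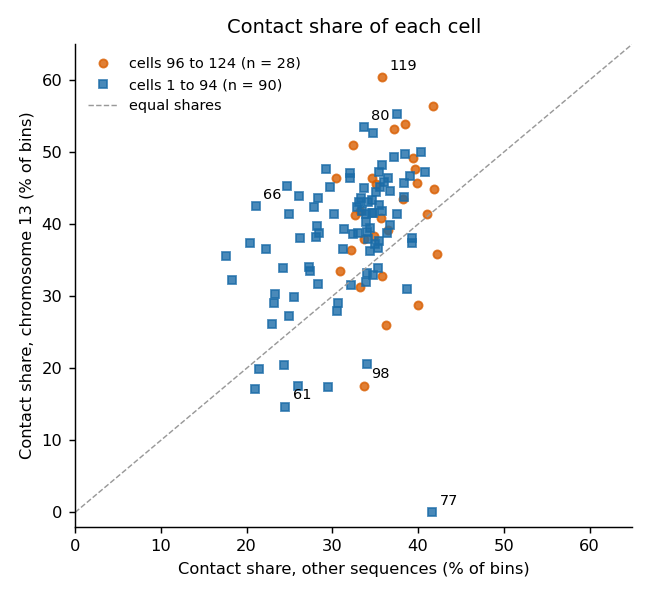
Contact share of chromosome 13 (percent of its 960 usable bins, vertical axis) against that of all other sequences (percent of usable bins, horizontal axis), with 1 point for each of the 118 cells, circles for cells 96 to 124 and squares for cells 1 to 94. The dashed line marks equal shares, 94 cells lie above it, and cell 77 lies at 0 on the vertical axis; 6 cells are labelled by number.

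The mean difference was smaller than the SD between cells, so the ordering of the 2 shares was not the same in every cell. After cell 77, cell 98 had the most negative difference, -16.0 points, with a chromosome 13 share of 17.6%. At the other end, cell 119 was 24.6 points above its other sequences. Cell 119 itself had no contact on chromosomes 5 and 15. Over cells, the share of chromosome 13 and the share of the rest had a Pearson's r of 0.381 and a Spearman's rho of 0.424 (n = 118), and r was 0.478 without cell 77. Without the 2 cells farthest from the median share of the rest, r was 0.382. Within cells 96 to 124, r was 0.235, and within cells 1 to 94 it was 0.378, or 0.519 without cell 77. Both shares come from the same library and rest on the same depth, and r with the number of reads was 0.339.

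Among the 22 sequences of the table chromosome 13 came after 3 others by mean contact share. Chromosome 4 had 46.2% ± 8.67, chromosome X 44.0% ± 9.35 and chromosome 18 41.4% ± 9.93. Chromosome 13 differed from chromosome 4 by -7.36 ± 10.5 points and was higher in 26 of 118 cells. It differed from chromosome 18 by -2.49 ± 11.2 points and was higher in 46 cells. Its difference from chromosome 5, the next in rank, was 0.512 ± 12.4 points, with chromosome 13 higher in 61 cells. Without cell 77 it was 1.01 ± 11.2 points. With all cells kept, it was 2.78 points over cells 96 to 124, a mean that includes cell 119 at 60.4 points. Over cells 1 to 94 it was -0.194, a mean that includes cell 77 at -58.3 points. The medians were 0.589 points over cells 96 to 124 and 0.201 over cells 1 to 94. The differences from these 3 chromosomes were all smaller than the spread between cells.

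The other acrocentric chromosomes in the table had less contact. Chromosome 13 exceeded chromosome 14, at 31.5% ± 10.4, by 7.36 ± 12.8 points and in 92 of 118 cells (69.4 to 85.1%). In cells 96 to 124 that difference was 5.66 points, with chromosome 13 higher in 16 of 28 cells, and in cells 1 to 94 it was 7.89 points, higher in 76 of 90. It exceeded the usable part of chromosome 15, at 26.0% ± 11.9, by 12.8 ± 15.0 points and in 98 cells. Against chromosome 21, at 25.8% ± 9.93, it was higher by 13.1 ± 12.5 points and in 106 cells (82.9 to 94.6%). For background on gene content, the RefSeq table of assembly GRCh38.p14 lists 338 protein-coding genes on chromosome 13, 605 on chromosome 14, 617 on chromosome 15, 270 on chromosome 18 and 239 on chromosome 21.

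Signal strength over contacts was a separate measure from the share of bins. Within contacts, the median ratio on chromosome 13 divided by that on the other sequences of the same cell was 1.00 ± 0.135 (n = 117), a mean at which both strengths are equal. Cell 66 was the highest, with a median ratio of 4.46 in its chromosome 13 contacts against 2.84 elsewhere, a quotient of 1.57. It placed 9.99% of its reads on chromosome 13, whereas the mean over cells was 4.37% ± 1.30. Cell 20 had a quotient of 1.53 and 8.16% of its reads there, and cell 89 had 1.45 and 8.14%. All 3 were shallow libraries, with 46574, 72313 and 31871 reads. Cell 82 was the lowest, with a quotient of 0.709 and 1.82% of its reads on chromosome 13.

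Contact was unevenly spread over the arm. Bins in contact in at least 80% of cells, called frequent here, numbered 164 (16.4 Mb), or 17.1% of the arm, beside 15.1% of all usable bins. Without cell 77 there were 173 such bins, or 18.0%. Bins at 20 to under 80% numbered 400, or 41.7%, beside 33.9% over the genome. Bins above 0 but under 20% numbered 252, or 26.25%, beside 28.8%. Bins in contact in no cell numbered 144, or 15.0%, beside 22.3%, and for 0 of 118 cells the exact 95% interval reaches 3.08%, while 3 counts of the total are 2.54%. At 5% of cells or fewer, called rare here, lay 278 bins, or 29.0%, beside 38.8%. The share of frequent bins was thus near that of the genome, while bins of middle frequency took up more of the arm and empty ones less. The sizes of these classes moved with the processing. With 109 cells thinned to 50000 reads and the 9 shallower ones left out, 10.4% of the arm was frequent and 9.17% without contact. Leaving out the 14 cells with under 3 reads for a ratio of 1, without thinning, gave 18.9% and 15.9%. The parts of thinning and of the smaller set of cells were not tested apart on the same cells. With contact taken at a ratio of 2, frequent bins were 0.104% and bins without contact 25.5%. These classes were not counted over all usable bins under such settings. Whether the differences from the genome hold there was not tested.

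The middle-frequency bins held 58.2% of all chromosome 13 contacts and the frequent bins 37.6%. On chromosome 14 the frequent bins made up 6.93% and the bins without contact 19.2%. On chromosome 18 they were 21.3% and 9.45%. Chromosome 14 reached nearly the same proportion of middle-frequency bins as chromosome 13, 41.8%, and among the classes the distance between these arms was largest in the frequent one. The median ratio during contact also followed frequency. It was 2.48 in the frequent bins, 2.03 in bins at 20 to under 80% and 1.49 in the 140 bins below 20% that had at least 5 cells in contact. Frequency and ratio come from the same values and are not independent measures.

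Along the arm, contact was rare near the centromere, dense in the middle and mixed towards the end. Cut into 3 parts of 320 bins, the part from 19000001 to 51100000 had a mean frequency of 13.4%, with no frequent bin and 91 bins without contact. The part from 51100001 to 83100000 had 57.7%, with 98 frequent bins and 13 without contact. The part from 83100001 to 115200000 had 45.5%, with 66 frequent bins and 40 without contact.

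The middle part stood above the outer parts in nearly every cell. The middle part exceeded the mean of the outer parts by 28.2 ± 10.4 points (n = 118). It was higher in 117 cells, with cell 77 at 0, and the exact interval is 95.4 to 100.0%. Cells 96 to 124 had a difference of 21.5 ± 8.32 points and cells 1 to 94 one of 30.3 ± 10.1. The middle part also exceeded the last part by 12.1 ± 9.60 points and in 104 of 118 cells. Cell 19 had the opposite order by the widest margin, at -23.1 points. The first part differed most between the sets of cells, at 20.5% ± 11.1 over cells 96 to 124 and 11.2% ± 7.18 over cells 1 to 94, the same order as the share of bins holding any read. The part of depth in this difference was not tested.

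**Figure D2:**
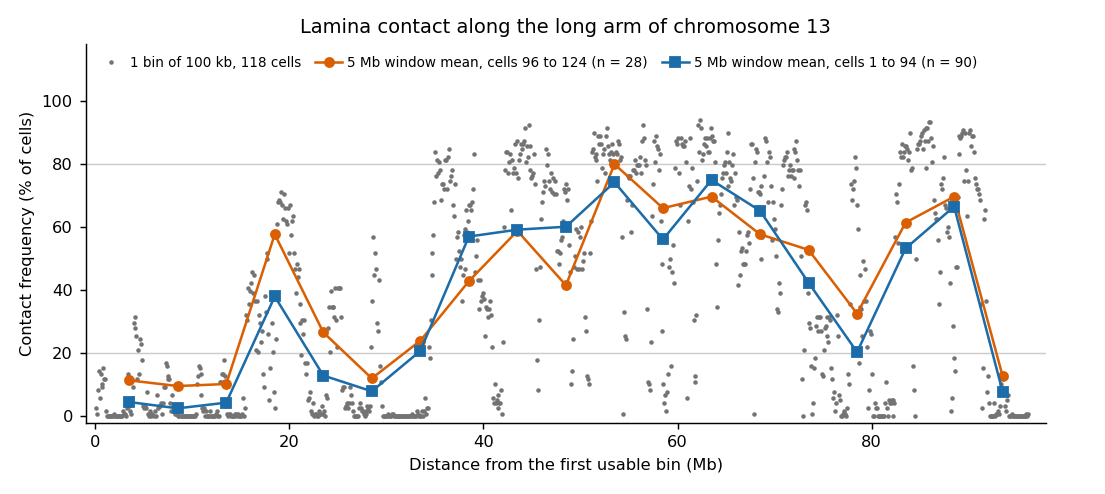
Contact frequency (percent of cells, vertical axis) by distance from the start of the first usable bin (Mb, horizontal axis), with a grey point for each 100 kb bin over 118 cells, circles for the means of 5 Mb windows in cells 96 to 124 and squares for those in cells 1 to 94. Grey lines mark 20% and 80%; frequent bins begin beyond 30 Mb, and the window means of the sets cross several times.

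In windows of 5 Mb, the sets of cells did not differ by a constant amount. Of 19 windows from 20 to 115 Mb, cells 96 to 124 had the higher mean in 14 and the lower in 5. The window from 35 to 40 Mb, the densest of the first part, averaged 57.7% ± 30.3 over cells 96 to 124 and 38.0% ± 23.5 over cells 1 to 94. Its highest bin was in contact in 71.2% of cells, so no bin of it was frequent. The median cell had 43% of this window in contact, and the highest, cell 117, had 92%.

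The opposite order appeared further along. From 65 to 70 Mb, cells 96 to 124 had a mean of 41.6% ± 18.8 and cells 1 to 94 one of 60.1% ± 23.2. From 55 to 60 Mb, cells 96 to 124 averaged 42.9% ± 25.0 and cells 1 to 94 57.0% ± 27.7. From 85 to 90 Mb the values were 57.7% ± 20.3 for cells 96 to 124 and 65.2% ± 24.2 for cells 1 to 94. These windows thus ran against the overall order of the sets, and the cause was not tested.

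The densest windows lay at 70 to 75 Mb, with 75.6% ± 20.8 (n = 118) and 29 frequent bins, and at 80 to 85 Mb, with 73.7% ± 19.8 and 24 frequent bins. In the first of these the median cell had 83% of the window in contact and 104 cells had over 50%. In the window from 105 to 110 Mb the mean was 67.3% ± 19.8, and apart from cell 77 every cell had at least 18% of it in contact. Cell 80 had all of that window in contact. Contact dropped sharply beyond it, since the window from 110 to 115 Mb had 8.96% ± 6.72 and 23 of its 49 bins touched the lamina in no cell. Within the distal part, the window from 95 to 100 Mb was a second valley, with 23.3% ± 14.3 and 3 cells above 50%.

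The frequent bins formed 47 stretches of consecutive bins, 4 of them at least 1 Mb long, and the median stretch spanned 0.2 Mb. The longest was chr13:81100001-82900000, of 1.8 Mb, where a cell had on average 87.0% ± 20.0 of the stretch in contact (n = 118). The lowest cells were at 0, the median was 94.4% and 48 cells were at 100%. Over 50% of it was in contact in 113 cells, a smaller part in 3, and none in cells 61 and 77. The second, chr13:71600001-73200000, of 1.6 Mb, had 84.3% ± 26.3, with no contact in cells 37, 49, 61 and 77. Both lie in the middle part of the arm.

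The stretches chr13:62600001-63700000 and chr13:101900001-103000000, of 1.1 Mb each, had 85.6% ± 24.0 and 84.5% ± 28.7. The first was untouched in cells 19, 77 and 90, and the second in cells 36, 61, 64, 77, 89 and 112. The next 6 by length, of 0.6 to 0.9 Mb, had means of 84.2 to 88.9%. Of these, chr13:107900001-108500000 and chr13:109000001-109600000 were untouched in cell 77 alone, and the means were 88.3% ± 23.4 and 88.0% ± 23.8. Between these 10 stretches the means differed by far less than the SD between cells.

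Most cells had most of the frequent stretches in contact. Of the 10 longest, 74 cells had over 50% of all 10 in contact, 12 cells had 9 and 15 cells had 8. Apart from cell 77, the lowest were cell 12 with 1 stretch, cell 61 with 2, cell 82 with 3 and cells 4 and 69 with 4. Cell 12 had the second lowest number of reads on the chromosome, 802. Cell 61, with 2221 reads there, had no contact in 6 of the 10 stretches, a chromosome 13 share of 14.7% and a share of 24.5% on the other sequences. The bins with the highest frequency were chr13:81300001-81400000, in contact in 111 of 118 cells (94.1%, interval 88.2 to 97.6%), and chr13:104900001-105000000 and chr13:105000001-105100000, both in 110 cells (93.2%, 87.1 to 97.0%). With cell 77 at 0, no bin could reach 100%.

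**Figure D3:**
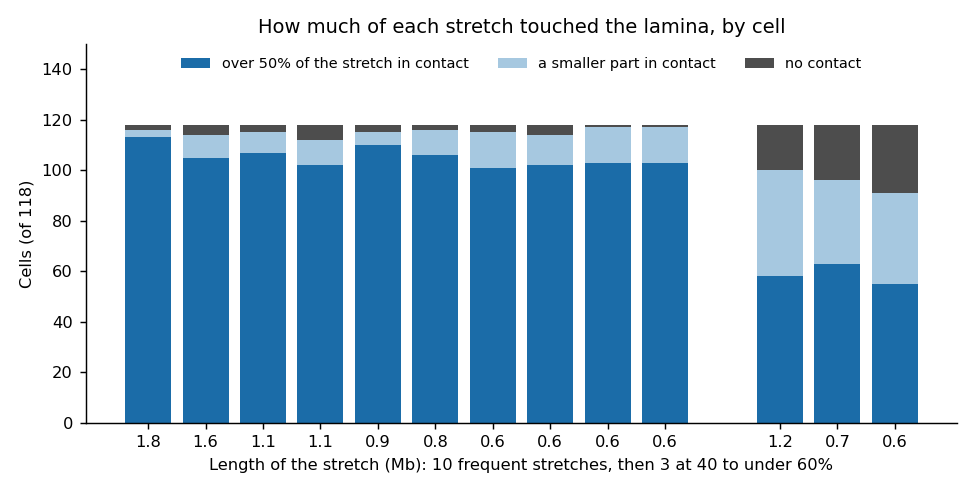
Number of cells (vertical axis, of 118) with over 50% of a stretch in contact (dark blue), a smaller part (light blue) or none (dark grey), for the 10 longest frequent stretches and then the 3 longest stretches at 40 to under 60% of cells, labelled by length in Mb. Over 50% was in contact in 101 to 113 cells for the frequent stretches and in 55 to 63 cells for the others, an order set by the limits that defined them.

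Stretches in contact in 40 to under 60% of cells numbered 51, and 1 reached 1 Mb. It was chr13:85200001-86400000, where 20 cells had all 12 bins in contact and 18 cells had none. In chr13:68300001-69000000, of 0.7 Mb, the mean share was 52.3% ± 37.7, with all bins in contact in 25 cells and none in 22. In chr13:56100001-56700000, of 0.6 Mb, it was 52.5% ± 37.5, with all bins in 24 cells and none in 27. In each of these 3 stretches most cells had some bins in contact and others not, between cells with all and cells with none. The stretch from 85200001 averaged 42.9% over cells 96 to 124 and 54.4% over cells 1 to 94. In the opposite direction, the stretch from 68300001 averaged 58.2% over cells 96 to 124 and 50.5% over cells 1 to 94. The stretch from 56100001 averaged 51.8% over cells 96 to 124 and 52.8% over cells 1 to 94. All 3 differences were smaller than the SD between cells.

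Rare bins formed 41 stretches, of which 10 reached 1 Mb. The longest, chr13:48500001-52900000, of 4.4 Mb, had a mean of 0.289% ± 0.816 in contact, and 104 cells had none. In the highest cell 4.55% of it was in contact. Next came chr13:27000001-29400000, of 2.4 Mb, with 0.424% and 109 cells without contact, and chr13:20100001-22300000, of 2.2 Mb, with 0.385% and 112 such cells. The last 2.1 Mb of the usable arm, chr13:113100001-115200000, had 0.121%, and 115 cells had none.

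The fifth rare stretch, chr13:45400001-47400000, of 2 Mb, had 1.65% ± 7.25 and 106 cells without contact, but 1 cell had 60% of it in contact. One rare stretch thus closed the usable arm, and the longest of them crossed from the first part of the arm into the middle part. In all 5 of these stretches the mean was higher in cells 96 to 124 than in cells 1 to 94, for example 1.19% against 0.185% from 27000001 to 29400000.

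Some changes between touched and untouched chromatin were abrupt. The 2 largest steps between 5 bins on one side of a border and 5 bins on the other had the same size. In the first, the bins from 61100001 to 61600000 had a mean frequency of 76.6%, against 8.31% from 60600001 to 61100000, a difference of 68.3 ± 32.5 points (n = 118). The right side was higher in 106 cells, the left in 1, and 11 were equal. In the second the order was turned, with 17.5% from 75800001 to 76300000 against 85.8% from 75300001 to 75800000, and a difference of -68.3 ± 32.7 points. There the left side was higher in 110 cells and the right in 1.

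The next 3 steps were of similar size. At the border before 96800001 the right side had 74.2% and the left 12.4%, with the right higher in 105 cells. Before 77400001 the right had 10.0% and the left 71.2%, with the left higher in 108 cells and the right in none. Before 101400001 the right had 64.7% and the left 3.73%, with the right higher in 99 cells. All these borders were picked for the largest steps in mean frequency over the same cells. A mean step of that size requires most cells to have the same side higher. The counts of cells therefore do not test whether borders are shared. Frequency returned to a high level between the falls at 75800001 and 77400001.

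Within single cells, contacts came in runs of consecutive bins. There were 8082 runs on chromosome 13 over all cells, with a mean length of 0.545 Mb and a median of 0.2 Mb. Runs on the other sequences averaged 0.495 Mb. Runs of at least 1 Mb held 58.1% of the contact bins of chromosome 13 and 54.2% of those elsewhere, and single-bin runs held 6.68% and 7.65%. Chromosome 14 had a mean run of 0.467 Mb and 51.0% in long runs, and chromosome 18 had 0.532 Mb and 59.5%. In cells 96 to 124 the mean run on chromosome 13 was 0.466 Mb, against 0.578 Mb in cells 1 to 94. Per cell, the mean run was 0.574 ± 0.190 Mb (n = 117). Cell 98 had the shortest mean run, 0.184 Mb, and cell 9 the longest, 1.25 Mb. Run lengths rest on the rule, since bridging gaps of 1 bin gave a mean run of 1.03 Mb and a contact value of 2 gave 0.283 Mb.

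The longest run of a cell averaged 3.34 ± 1.06 Mb (n = 117). It was 1 Mb in cell 98 and 6.8 Mb in cell 80, where it covered chr13:103500001-110300000 and so the whole of the window from 105 to 110 Mb. Cells 60, 83 and 9 had runs of 6.0 to 6.1 Mb that all began between 53600001 and 53800001 and ended between 59700000 and 59900000. The position of the longest run was not the same in all cells. It started in the window from 80 to 85 Mb in 23 cells, from 60 to 65 Mb in 21, from 70 to 75 Mb in 19, from 50 to 55 Mb in 13, from 65 to 70 Mb in 12 and from 100 to 105 Mb in 10. In 2 cells it started between 35 and 40 Mb, the only starts before 50 Mb.

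Cells resembled each other in their chromosome 13 pattern to different degrees. Across bins, the correlation of 1 cell's contacts with the mean of the other cells had a median of 0.714 (n = 117 cells). The lowest value was 0.334, in cell 61, and the highest 0.863, in cell 39. Cells 96 to 124 averaged 0.626 ± 0.0812 and cells 1 to 94 averaged 0.715 ± 0.113. The mean of the other cells rests mostly on cells 1 to 94 (n = 90). These averages therefore do not compare how alike the cells are within each set. These correlations run across 960 neighbouring bins, which are not independent.

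Contacts of nearby bins went together over cells. For pairs among the 400 bins at 20 to under 80%, after the contact share of the cell had been removed by regression, Pearson's r over cells averaged 0.518 for neighbours, 0.159 at 2 to 5 Mb and 0.0738 at 20 to 50 Mb. Without cell 77 these were 0.509, 0.145 and 0.0585. All pairs of a cell share its library and depth. For neighbours, the other 20 sequences with a value had a median of 0.476, from 0.404 to 0.555, and 4 were above chromosome 13. At 20 to 50 Mb, 19 sequences had a median of 0.0652, and 8 were above chromosome 13. In both distance classes chromosome 13 was within the range of the other sequences.

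One distant pair of windows stood out. The share in contact of the window from 55 to 60 Mb and that of the window from 85 to 90 Mb had r = 0.707 over 118 cells after the same removal, and 0.698 without cell 77. In cells 96 to 124 r was 0.445 (n = 28), and in cells 1 to 94 without cell 77 it was 0.741 (n = 89). Without removal it was 0.693. The pair was picked after its values were seen, as the highest of the 33 chromosome 13 pairs whose starts are 25 to 50 Mb apart, so it is given as a description. Those 33 pairs had a median of 0.178 without cell 77. On the other sequences 843 pairs at these distances had a median of 0.185, a 95th percentile of 0.415 and a highest value of 0.595.

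In counts of cells, over 50% of both windows was in contact in 55 cells, of the window from 55 to 60 Mb alone in 7, of the window from 85 to 90 Mb alone in 32, and of neither in 24, cell 77 included. In cells 96 to 124 these counts were 7, 3, 12 and 6. Of the 1672 pairs of middle-frequency bins between the windows, 97.9% had r above 0, with a mean of 0.241, as values of a pair chosen for its high r. The neighbouring windows from 70 to 75 and 75 to 80 Mb had 86.6% of bin pairs above 0 and a mean of 0.133. Those values rest on 20 and 19 middle-frequency bins, against 44 and 38 in the distant pair. The windows from 55 to 60 and 70 to 75 Mb, a pair picked for its low r, had 40.8% and a mean of -0.0182. Bin pairs of no other windows were counted in this way, so these values do not rank distant windows against neighbouring ones.

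**Figure D4:**
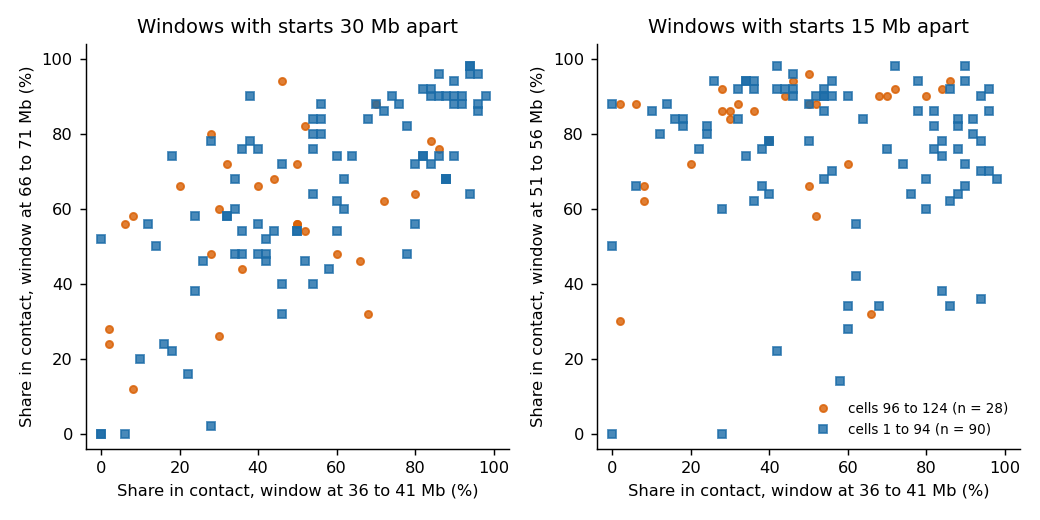
Share of 1 window of 5 Mb in contact (percent, vertical axis) against that of the window at 36 to 41 Mb from the first usable bin, which is the window from 55 to 60 Mb (percent, horizontal axis), with 1 point per cell, circles for cells 96 to 124 and squares for cells 1 to 94. The left panel has the window from 85 to 90 Mb (r = 0.707) and the right panel that from 70 to 75 Mb (r = 0.113), in which most cells lie above 50% whatever their value on the horizontal axis. Both pairs were picked after their values were seen, the left for a high r and the right for a low one.

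A window between them varied largely apart from the first. The window from 55 to 60 Mb and that from 70 to 75 Mb, which is 15 Mb away, had r = 0.113, and 0.0451 without cell 77. The latter was the lowest of 29 chromosome 13 pairs with starts 10 to 20 Mb apart, among windows with means of 20 to under 80%. Those 29 pairs had a median of 0.279 without cell 77. This pair too was picked after its values were seen, and it is given as a description. In cells 96 to 124 r was 0.258 and in cells 1 to 94 without cell 77 it was -0.0360. The window from 70 to 75 Mb was above 50% in 53 of the cells in which that from 55 to 60 Mb was too, and in 51 of the others. Its r with its neighbour from 75 to 80 Mb was 0.638, or 0.569 without cell 77. The latter was the highest of 11 pairs of neighbouring windows with means of 20 to under 80%, whose median was 0.437. With its other neighbour, from 65 to 70 Mb, r was 0.405, or 0.354 without cell 77. With the window from 80 to 85 Mb it was 0.565, or 0.479 without cell 77.

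**Figure D5:**
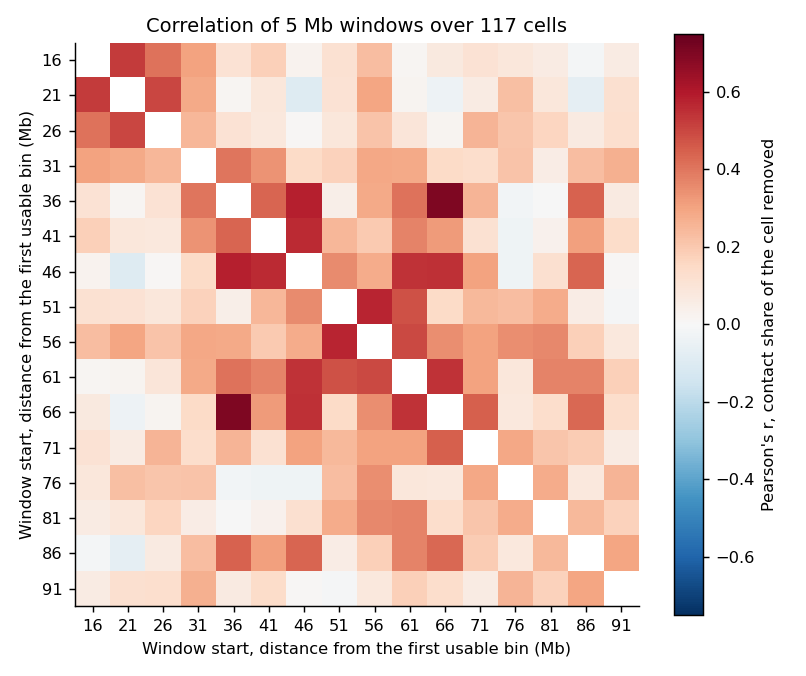
Pearson's r over 117 cells, without cell 77, for the share in contact of pairs of 5 Mb windows after removal of the contact share of the cell, from blue (below 0) to red (above 0). Both axes give the start of the window as its distance from the first usable bin (Mb), and the darkest square joins the windows at 36 and 66 Mb.

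Over all cells, nearly all other windows compared had a positive r with both windows of this pair, so the sign sets none apart. The windows named next were picked after their values were seen and are given as a description. For the window from 65 to 70 Mb, r was 0.598 with that from 55 to 60 Mb. With that from 85 to 90 Mb it was 0.574. Without cell 77 these were 0.584 and 0.550. For the window from 80 to 85 Mb, r was 0.434 and 0.585 in the same order, or 0.407 and 0.544 without cell 77. For the window from 105 to 110 Mb and that from 55 to 60 Mb, whose starts are 50 Mb apart, r was 0.467. It was 0.442 without cell 77 and 0.351 in cells 96 to 124. The windows from 55 to 60, 65 to 70 and 85 to 90 Mb are also those with the largest negative differences between cells 96 to 124 and cells 1 to 94. The part of this difference in the pooled r was not tested. For the windows from 65 to 70 and 85 to 90 Mb, r over cells 96 to 124 was 0.464, and over cells 1 to 94 without cell 77 it was 0.540. Whether these windows meet the lamina at the same time in a cell, or at different times of the same induction, cannot be told apart with accumulated methylation.

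With bins in 4 groups of rising expected reads, recovered from the table, mean contact frequency was 36.4%, 44.5%, 38.9% and 35.7%. The second group had the highest frequency, and how expected reads vary along the arm was not tested.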

How the data were processed

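Per the labels' protocols, single KBM7 cells were processed by DamID with Dam-LaminB1. The submitters' processing notes name cutadapt, Bowtie2 2.1.0 and build hg19; the other steps, and how expected reads were obtained, are not given in those notes or the labels. The authors deposited a ratio of observed to expected reads per 100 kb bin and cell, a unit taken from the name of the table and its values. Each value is a whole number of reads times 1 factor per bin and 1 factor per cell: 100% of 1697706 values above 0 came out whole within 0.02 reads, including all 69471 on chromosome 13. Duplicates may be among these reads. No 2 cell columns were identical.

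Contacts, frequencies, runs, stretches, borders, windows and correlations were computed with Python 3.11.15, numpy 2.4.6, pandas 2.3.3 and scipy 1.17.1, and drawn with matplotlib 3.10.9. The recovery of reads, the finding of runs and the correlation of bin pairs without regression were tested on simulated data, and the other procedures were not. Correlations of bins and windows were taken after a linear regression on the contact share of the cell over all usable bins. Named stretches are the 10 longest at 80% or more of cells, the 5 longest at 5% or less and the 3 longest at 40 to under 60%. The 3 highest bins and the 5 largest steps between 5 bins on either side of a border, at least 1 Mb apart, were also named. Members, lists and tests were chosen with earlier results of these data known. Other contact values, thinned reads, depth limits, sets of cells, bin filters and regressions were tried as alternatives.

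Gene lists were not placed in bins and no sequence is printed, because the reference tables used here are of assembly GRCh38.p14 and the bins of hg19.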

Additional observations from a re-analysis of the deposited data

How the results depend on the processing

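In all, 11 results were computed under 16 alternative settings. Of 102 values, 76 stayed within the spread named below, 25 moved beyond it and 1 changed sign. The spread is the SD between cells, a factor of 1.5 for counts, or, for correlations of bins, the SD over the other sequences. The differences of chromosome 13 from the rest of the genome and from chromosome 14 moved by less than the SD between cells in each setting run. These SDs, 9.00 and 12.8 points, exceed the differences of 6.11 and 7.36 points, so a fall to near 0 would also have stayed within them. Over the settings the difference from the rest ran from 3.71 points at a contact value of 2 to 7.15 at 0.5. That from chromosome 14 ran from 5.66 in cells 96 to 124 to 7.89 in cells 1 to 94. A contact value of 0.5 gave a chromosome 13 share of 48.5%, 31.6% frequent bins and 2.60% without contact. A contact value of 2 gave a share of 22.4%, 0.104% frequent bins, 25.5% without contact, a middle part 17.8 points above the outer parts, mean runs of 0.283 Mb, 22.2% of contacts in runs of at least 1 Mb and r = 0.382 for neighbours. Thinning to 50000 reads, which changed the depth and left 109 cells, gave 10.4% frequent bins, 9.17% without contact, 40.1% in long runs and r = 0.379 for neighbours. Frequent bins were 1.56% at a limit of 90% of cells and 29.0% at 70%, and 29.0% of bins were at 5% of cells or fewer. At other contact values, other limits for frequent bins or thinned reads, the classes were not counted over all usable bins. Leaving out bins of low expected reads, which splits runs, gave 0.326 Mb and 31.8%, and bridging gaps of 1 bin, which joins them, gave 1.03 Mb and 80.6%. Neighbours at 40 to under 60% had r = 0.580. For bins over 20 Mb apart, r was 0.0656, and it was -0.0310 when the contact share of chromosome 13 itself was removed, a removal that takes out what the whole arm shares. That removal left r = 0.549 for the windows from 55 to 60 and 85 to 90 Mb, which other contact values, thinning and depth limits kept between 0.689 and 0.721. The causes of the other shifts were not tested. Leaving out cell 77, and all settings of that window pair, were added after seeing the data. Differences between parts of the genome were paired within each cell. No pairing of cells with each other was possible, because the cells form 1 group. Depth limits single contacts: in 14 cells a ratio of 1 stood for under 3 reads.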
